A study of Mus musculus with 1152 samples.

Results

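Microglia of the hippocampus of 5xFAD mice were set against microglia of the hippocampus of WT mice by single-cell RNA sequencing. The labels put 176 wells of 3 5xFAD mice and 190 wells of 4 WT mice in these groups. A well was kept where at least 500 genes had a read, at least 10000 reads fell on genes and at most 20% of those came from mitochondrially encoded genes. This left 154 5xFAD cells (50, 58 and 46 for mice 1 to 3) and 182 WT cells (46, 45, 47 and 44 for mice 1 to 4), which is 336 of the 1041 cells kept in the whole series and 7 of its 22 sums over the cells of a mouse and region. The series also holds cortex and cerebellum, which by its design text came from the same animals. The labels do not say that equal mouse numbers in different regions are the same mouse. Single cells were sorted by flow cytometry into 384-well plates for full-length Smart-seq2 libraries. The strain label of both genotypes is C57BL/6J. 5xFAD mice carry transgenes with familial Alzheimer's disease mutations, human APP among them, under a neuronal Thy1 promoter, while WT mice carry none, and no age, sex or transgene dose was among the labels. Brains were perfused, cells were enriched on a Percoll gradient, and the sort used antibodies to CD11b, CD45, Ly6C, Ly6G and CD206, so what is described is the part of the cells that passed this gate.

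Microglia are the resident macrophages of the brain. Around amyloid plaques in mice they are known to leave a homeostatic state, marked by genes such as P2ry12 and Tmem119, for a disease-associated state marked by Apoe, Cst7, Lpl, Axl and Clec7a, and the later step of that change is known to need the receptor Trem2 and its adaptor Tyrobp. Lysosomal proteases, lipid handling and antigen presentation genes are known parts of the same state. The comparison asks which of these programs, and which other genes, differed between the genotypes in the hippocampus, a region with early and dense plaques in this model.

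Sums per mouse held 16009530, 18745620 and 14052544 gene reads in 5xFAD mice, against 8915085, 9077243, 11228784 and 12923320 gene reads in WT mice. The median cell had 328896 reads and 2909.5 genes in 5xFAD mice and 235875 reads and 2537.5 genes in WT mice, so measures per cell that depend on depth are given after each cell was thinned to 50000 reads. The 5xFAD hippocampal cells were all on 1 plate and the WT hippocampal cells all on another, so plate cannot be told apart from genotype in what follows. The 10 microglia markers summed to 51010 to 53000 CPM (reads scaled to a common library total) in 5xFAD mice and 57020 to 64610 CPM in WT mice, none of them at 0 in either group. Markers of other cells were low for some types only. The 9 border macrophage markers summed to 5.49 to 16.2 CPM in 5xFAD mice and 0 to 342 CPM in WT mice. In WT mouse 3, at 342 CPM, 1 well carried them. The 6 B cell markers summed to 807 to 1064 CPM in 5xFAD mice and 573 to 905 CPM in WT mice. For the 8 neutrophil markers this was 779 to 929 and 355 to 566 CPM, nearly all of it from Csf3r, which microglia also express. They marked no hippocampal well. Astrocyte markers reached 213 and 262 CPM and oligodendrocyte markers 282 and 201 CPM. B cell markers marked 1 well each of 5xFAD mouse 2 and WT mouse 2. Neuron markers marked 1 well of 5xFAD mouse 3. The 8 T and NK cell markers summed to 1.46 to 2.55 CPM in 5xFAD mice and 0 to 0.111 CPM in WT mice, and the 5 red blood cell markers were at 0 in every 5xFAD mouse and reached 0.54 CPM in WT mice. Totals were scaled by edgeR's trimmed mean of M values, and fold changes are log2, 5xFAD over WT, with their standard error (SE).

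In the hippocampus, the genes called higher in 5xFAD microglia included most members of the disease-associated lists and some of the lysosomal, class I antigen presentation and glycolysis lists, and those called lower included 9 homeostatic genes such as P2ry12 and Tmem119. Of 17358 genes tested, 132 were higher in 5xFAD microglia, which is 0.76% of them, and 44 were lower, which is 0.253% (edgeR quasi-likelihood test on the sums per mouse, Benjamini-Hochberg adjusted p under 0.05). The median fold change was 1.29 among the higher genes and −1.13 among the lower ones, against 0.10 over all genes tested. All 176 genes had every mouse of one genotype on the same side of every mouse of the other, as did 1911 genes in all, or 11% of those tested, in either direction. When every cell was given equal weight in place of every read, 185 genes were called higher and 187 lower, so the split between higher and lower genes depended on this weighting.

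Apoe, the apolipoprotein that carries lipid between brain cells, stood at 16732, 14347 and 11759 CPM in 5xFAD mice 1 to 3, against 147, 78.6, 1266 and 200 CPM in WT mice 1 to 4. Every 5xFAD mouse was far above every WT mouse, and WT mouse 3 stood above the other WT mice. The fold change was 5.08 ± 1.00 (edgeR adjusted p = 0.00838), and it was 6.41 once wells with markers of another cell type, among them the border macrophage well of WT mouse 3, were left out. Apoe lies on chromosome 7 at 19696109 to 19699188 (GRCm38, minus strand). A sum over cells cannot tell more positive cells from more RNA per cell, and shares of cells are given further on.

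**Figure D1:**
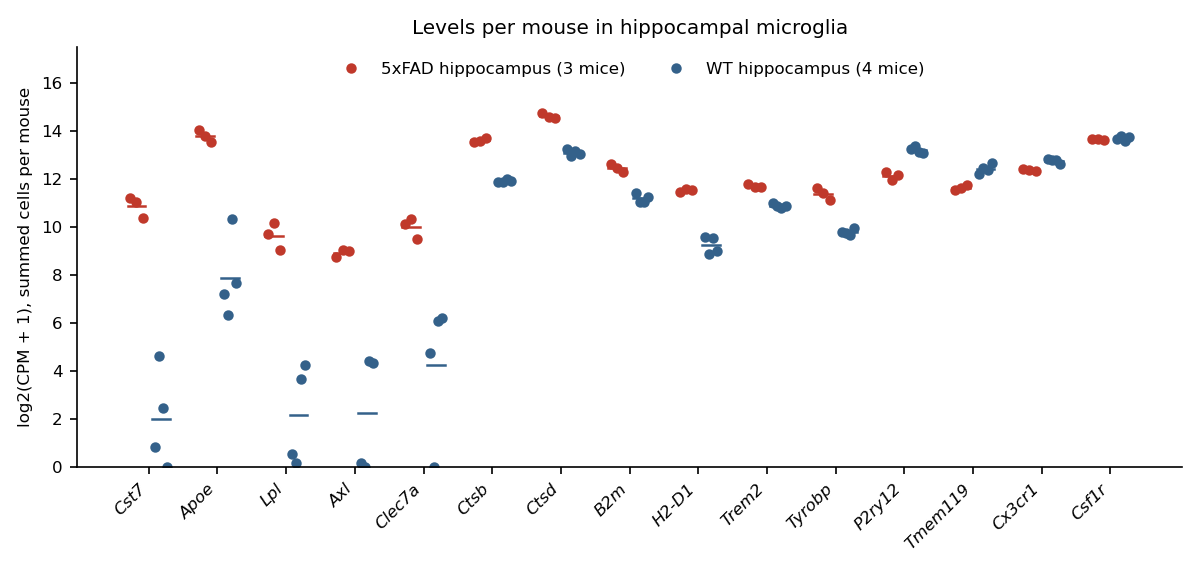
Level of 15 genes in each mouse as log2(CPM + 1) of its summed hippocampal cells (vertical axis), with 5xFAD mice (red, n = 3) left of WT mice (blue, n = 4) and a bar at each group's mean. Disease-associated genes on the left stand apart, Ctsb to Tyrobp are higher in every 5xFAD mouse, P2ry12, Tmem119 and Cx3cr1 are lower, and Csf1r overlaps.

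Among the genes known as the early, Trem2-independent step of the disease-associated state in mice (stage 1 in the plot of gene lists), 7 of 9 tested rose and none fell, with a list median of 1.59. Besides Apoe these were Tyrobp, the proteases Ctsb and Ctsd, the class I genes B2m and H2-D1, and Fth1, the ferritin heavy chain that stores iron. Lyz2, a lysozyme, had 2957, 2102 and 2914 CPM in 5xFAD mice against 314, 188, 1625 and 220 CPM in WT mice, and did not pass the test (fold change 2.18 ± 0.66, adjusted p = 0.172). Timp2, a metalloprotease inhibitor, was the other member that did not, at 0.80 ± 0.20 (adjusted p = 0.0639).

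Of the 28 genes of the later, Trem2-dependent step (stage 2), 22 rose and none fell, and the list median was 3.05. Cst7, which encodes cystatin F, an inhibitor of lysosomal cathepsins, had 2335, 2070 and 1323 CPM in 5xFAD mice, against 0.777, 23.7, 4.45 and 0 CPM in WT mice. Its fold change was 8.06 ± 1.59 (adjusted p = 0.00848), and it lies on chromosome 2 at 150570415 to 150578944 (GRCm38, plus strand). Lpl, the lipoprotein lipase, had 821, 1135 and 517 CPM in 5xFAD mice, against 0.444, 0.109, 11.6 and 18 CPM in WT mice. All 3 5xFAD mice were high and all 4 WT mice near 0 for both genes, and the fold change of Lpl was 6.76 ± 1.08 (adjusted p = 0.00108).

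Surface receptors of the same list behaved alike in direction but differed in how firmly they passed. Axl, a TAM family kinase that helps cells take up dying ones, had 429, 527 and 507 CPM in 5xFAD mice and 0.111, 0, 20.4 and 19.2 CPM in WT mice. Clec7a, which encodes the beta-glucan receptor dectin-1, had 1102, 1299 and 721 CPM in 5xFAD mice and 25.6, 0, 66.3 and 73.0 CPM in WT mice. The groups did not overlap for either gene, and WT mice spread widely at low values. The fold changes were 5.60 ± 1.34 for Axl (adjusted p = 0.0417) and 4.65 ± 1.03 for Clec7a (adjusted p = 0.0241), but Axl lost its call in each of the 7 fits that left out a mouse (adjusted p 0.0733 to 0.0959) and Clec7a in 4 of them. Itgax, the integrin CD11c, had 179, 205 and 120 CPM in 5xFAD mice and 20.9, 0, 1.11 and 10.3 CPM in WT mice, and did not pass the test (4.38 ± 1.46, adjusted p = 0.238). Lilrb4a, an inhibitory receptor, had 237, 179 and 168 CPM in 5xFAD mice and 0.555, 0.873, 17.9 and 0 CPM in WT mice (5.32 ± 1.13, adjusted p = 0.0164), and kept its call in 5 of the 7 fits.

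Several secreted or membrane proteins of the list were nearly absent from WT hippocampal microglia. Igf1, the insulin-like growth factor, had 154, 102 and 153 CPM in 5xFAD mice, while WT mice held a single read in all (0.0856 CPM in WT mouse 3 and 0 in the others). The ratio of its CPM was 5730, with a 95% counting interval of 1028 to 226370 that covers counting error only, as reads carried no molecular identifiers. Ch25h, which makes 25-hydroxycholesterol, had 81.2, 153 and 129 CPM in 5xFAD mice and no read in any WT mouse, and was at least 1752-fold higher when WT is set to a floor of 3 reads over the group. Spp1, the secreted phosphoprotein osteopontin, had 44.5, 144 and 27.7 CPM in 5xFAD mice and no read in WT mice, at least 1109-fold higher by the same floor. All 3 passed the edgeR test (adjusted p = 0.00114, 0.000382 and 0.00227 for Igf1, Ch25h and Spp1). Gpnmb, a transmembrane glycoprotein of lysosomes, had 217, 45.2 and 96.7 CPM in 5xFAD mice and no read in WT mice, yet did not pass (adjusted p = 0.0639). Ank, a pyrophosphate transporter, Lgals3bp, a secreted glycoprotein, the lymphocyte and myeloid antigen Cd52 and the tetraspanin Cd9 also rose, by 3.5 ± 0.61, 2.60 ± 0.33, 1.97 ± 0.28 and 0.88 ± 0.14. The other members that did not pass were Itgax, Csf1, Ccl6, Fabp5 and Lgals3. For each of them every 5xFAD mouse was above every WT mouse, as for 1251 of the 17358 genes tested.

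Cells of the 5xFAD hippocampus were a mixture for most of these genes. After thinning to 50000 reads, Cst7 had a read in 65.1%, 64.0% and 66.7% of the cells of 5xFAD mice 1 to 3, against 2.27%, 6.98%, 4.35% and 0% in WT mice 1 to 4. Axl was detected in 53.5%, 62.0% and 66.7% of cells of 5xFAD mice and in 0%, 0%, 6.52% and 4.55% of cells of WT mice. Roughly equal shares of cells carried these genes in the 3 5xFAD mice, and the groups did not overlap. Clec7a was found in 55.8%, 64.0% and 64.3% of cells of 5xFAD mice against 4.55%, 0%, 8.70% and 6.82% in WT mice. Lpl, Itgax and Igf1 were rarer, with 37.2% to 47.6%, 31.0% to 34% and 20.0% to 32.6% of cells in 5xFAD mice against 0% to 10.9%, 0% to 4.55% and 0% to 2.17% in WT mice.

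Apoe had a read in 81.4%, 86.0% and 90.5% of the thinned cells of 5xFAD mice 1 to 3 and in 34.1%, 16.3%, 34.8% and 34.1% of those of WT mice. Without thinning the shares were 98%, 96.6% and 100% in 5xFAD mice against 37.0%, 17.8%, 36.2% and 38.6% in WT mice. Among 10 genes whose shares were compared, the exact two-sided permutation test over mice gave p = 0.05714 for these 7 and for P2ry12 (adjusted p = 0.07143), the smallest p that 3 against 4 mice allow, so no share could pass 0.05. Blank wells held little of these genes: the 4 blanks of the 5xFAD plate had 2 reads each of Cst7 and Apoe and none of Lpl, Axl, Itgax, Clec7a or Igf1 among 24000 gene reads.

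**Figure D2:**
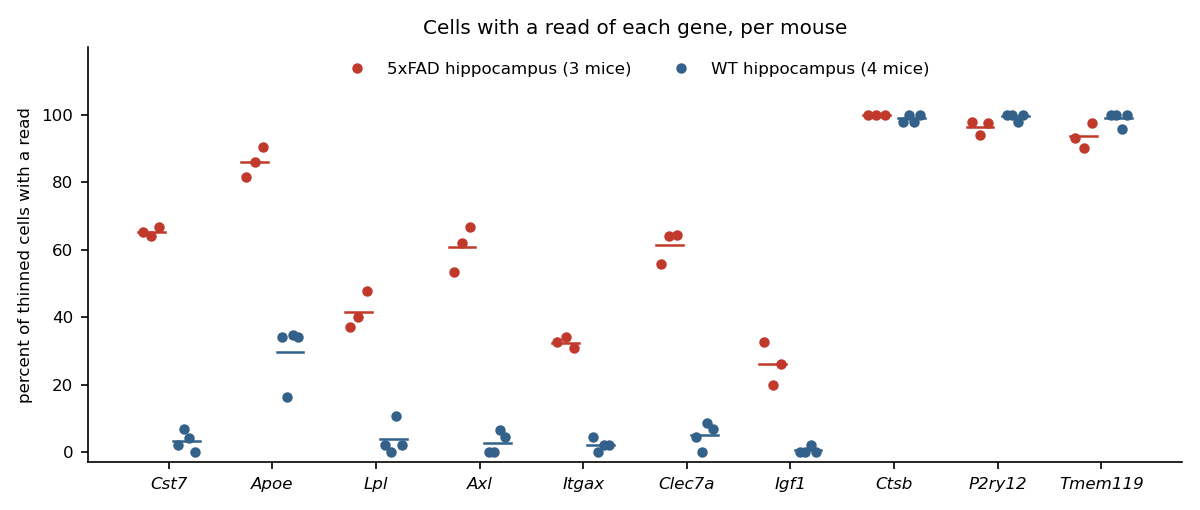
Percent of cells with at least 1 read of each of 10 genes after thinning to 50000 reads (vertical axis), 1 point per mouse, 5xFAD (red, n = 3) left of WT (blue, n = 4), bars at the mean. Cst7, Axl and Clec7a were found in 53.5% to 66.7% of the cells of each 5xFAD mouse, and Ctsb, P2ry12 and Tmem119 in nearly every cell of both genotypes.

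The number of later-step genes seen in a single cell spread widely in 5xFAD mice. Of the 28 genes, the median thinned cell carried a read of 16, 16 and 18 in 5xFAD mice 1 to 3, against 10 in each of the 4 WT mice. The middle 50% of cells spanned 12 to 21, 12 to 21.75 and 13 to 22 genes in 5xFAD mice, against 8 to 10.25, 9 to 11, 9 to 11 and 9 to 11.25 genes in WT mice. A value of 13 marked the 95th percentile of WT cells, and 65.1%, 66.0% and 69.0% of cells in 5xFAD mice lay above it, against 0%, 2.33%, 8.70% and 6.82% in WT mice. The remaining cells of 5xFAD mice lay at or below that WT value. The low WT shares follow from how the value was set. Counts in 5xFAD cells ran from 2 to 27 with no gap at 13, so the value does not divide these cells into separate kinds. For the 34 homeostatic genes the median cell carried 28, 28.5 and 29 in 5xFAD mice against 30, 30, 29.5 and 31 in WT mice, a small difference with no overlap of the medians.

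**Figure D3:**
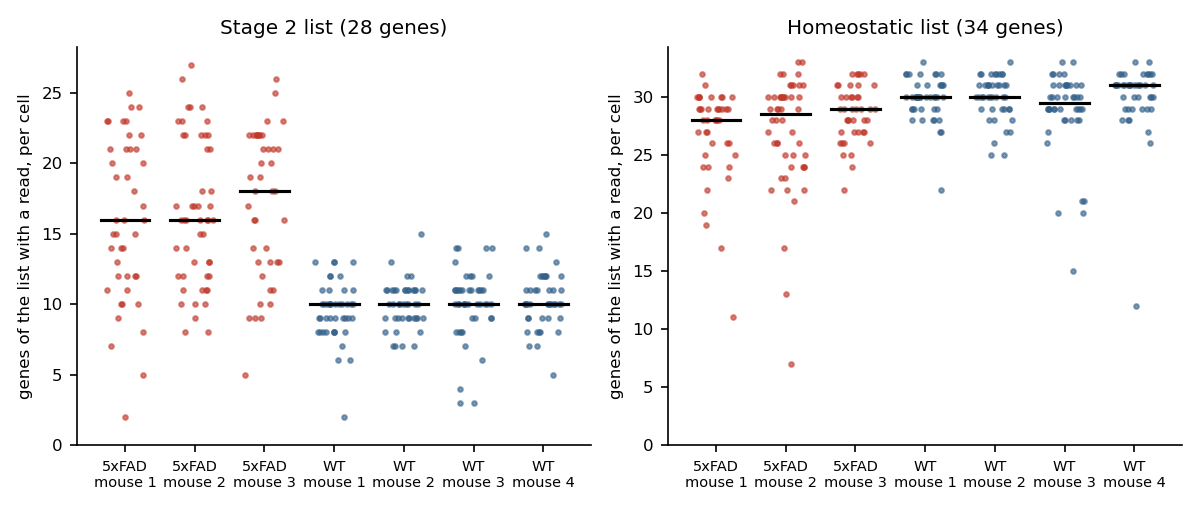
Number of list genes with a read in each thinned cell (vertical axis) by mouse, 5xFAD mice (red) left of WT mice (blue), with a bar at each mouse's median. Later-step genes (left panel) had medians of 16 to 18 in 5xFAD mice against 10 in WT mice, with 5xFAD cells spread from 2 to 27, and homeostatic genes (right panel) had medians of 28 to 29 against 29.5 to 31.

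Of 33 homeostatic genes tested, 9 fell, 1 rose and 23 passed in neither direction, with a list median of −0.45. The count lower changed with equal weight per cell and with a mouse left out: it was 23 with equal weight per cell (none higher, list median −0.75), 5 without 5xFAD mouse 2, 5xFAD mouse 3 or WT mouse 2, and 6 to 8 without any other mouse. P2ry12, the ADP receptor that steers microglial processes toward injury, had 4938, 3977 and 4574 CPM in 5xFAD mice, against 9627, 10672, 8783 and 8715 CPM in WT mice. Its fold change was −1.07 ± 0.09 (adjusted p = 3.21e-07), and it lies on chromosome 3 at 59216272 to 59262871 (GRCm38, minus strand). Tmem119, a microglial surface protein used as a marker, had 2956, 3157 and 3394 CPM in 5xFAD mice and 4687, 5653, 5245 and 6521 CPM in WT mice (−0.80 ± 0.14, adjusted p = 0.00366). No 5xFAD mouse reached the lowest WT mouse for either gene. P2ry12 was lower per cell while still found in nearly every cell. The median P2ry12 level over cells was 3623, 2832 and 2941 CPM in 5xFAD mice and 9217, 10820, 8880 and 8381 CPM in WT mice. These medians lack the trimmed mean scaling of the sums. At least 94.0% of the thinned cells of every mouse had a read.

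Crybb1, a beta-crystallin expressed by microglia, fell furthest of the list, at 59.1, 49.5 and 44.8 CPM in 5xFAD mice against 225, 203, 192 and 235 CPM in WT mice (−2.06 ± 0.28, adjusted p = 0.000154). Selplg, the P-selectin ligand, fell by 0.72 ± 0.09 and the sialomucin Cd164 by 0.95 ± 0.16. Rhob, a small GTPase, Slc2a5, the fructose transporter, Bin1, a membrane-bending adaptor at an Alzheimer's risk locus, and the fractalkine receptor Cx3cr1 fell by 0.94, 0.90, 0.64 and 0.37. Rhob and Cx3cr1 kept their call in 1 of the 7 fits without a mouse, and Slc2a5 and Bin1 in 2, and with equal weight per cell all 4 were called lower. The gene that rose was Serinc3, a membrane protein of the serine incorporator family, with 4270, 3958 and 3687 CPM in 5xFAD mice and 2680, 3495, 3027 and 2814 CPM in WT mice (0.40 ± 0.09, adjusted p = 0.0179). Serinc3 kept its call in 3 of the 7 fits without a mouse and stood at 0.09 with equal weight per cell (adjusted p = 0.732).

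Csf1r, the receptor for colony-stimulating factor that microglia need to survive, had 13123, 13129 and 12565 CPM in 5xFAD mice and 13152, 14004, 12090 and 13598 CPM in WT mice. The groups overlapped, with a fold change of −0.03 ± 0.06 (adjusted p = 0.931). With equal weight per cell, however, Csf1r was called lower at −0.38 (adjusted p = 0.00212), and P2ry12 stood at −1.38. The median cell had 9701, 9574 and 9761 CPM of Csf1r in 5xFAD mice and 12670, 14160, 11940 and 13020 CPM in WT mice, without overlap. Neither the equal-weight fit nor these medians had the trimmed mean scaling of the sums, so they differ from the sums in more than the weighting.

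Of 16 lysosomal proteases tested, 8 rose and none fell (list median 0.95). Ctsb, cathepsin B, a cysteine protease, had 12018, 12082 and 13286 CPM in 5xFAD mice, against 3733, 3768, 4088 and 3856 CPM in WT mice. Mice within a group differed by little and the groups were far apart, which gave the smallest p of any gene named here (1.69 ± 0.10, adjusted p = 1.93e-09). Ctsd, cathepsin D, the main aspartic protease of the lysosome, had 27600, 24664 and 24042 CPM in 5xFAD mice and 9633, 7919, 9100 and 8336 CPM in WT mice (1.54 ± 0.14, adjusted p = 4.53e-07). Ctsb lies on chromosome 14 at 63122462 to 63145923 (plus strand) and Ctsd on chromosome 7 at 142375911 to 142388038 (minus strand), both GRCm38.

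The cysteine proteases Ctsz, Ctsl and Ctsh were higher by 1.5 ± 0.12, 1.22 ± 0.14 and 0.95 ± 0.15, and the carboxypeptidase Ctsa by 0.93 ± 0.12. Ctss, cathepsin S, which trims the class II invariant chain, was higher by 0.56 ± 0.08, at 13336, 12433 and 13045 CPM in 5xFAD mice and 8993, 8891, 7743 and 9464 CPM in WT mice. Ctse, an endosomal aspartic protease, had 102, 31.0 and 69.5 CPM in 5xFAD mice and no read in WT mice, at least 934-fold higher. Not every protease moved: Lgmn, the asparagine endopeptidase, stood at −0.23 and Ctsf at −0.20, and neither passed the test. With equal weight per cell 7 proteases were higher and 1 lower, and Ctss was at 0.29 and not called (adjusted p = 0.128).

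Enzymes of the lysosomal glycosidase and lipase list rose in 6 of 26 tested and fell in none (list median 0.54). Pld3, a phospholipase D family exonuclease placed in this list, had 937, 1120 and 964 CPM in 5xFAD mice and 302, 258, 309 and 319 CPM in WT mice (1.76 ± 0.26, adjusted p = 0.00036). Gusb, beta-glucuronidase, and Hexa, a hexosaminidase subunit, were higher by 1.34 ± 0.20 and 1.09 ± 0.13. Ppt1 and Man2b1, enzymes whose loss causes lysosomal storage disease, were higher by 0.94 and 0.62. Of 30 genes in the lysosomal membrane and proton pump list, which also holds soluble lysosomal proteins, 9 rose and none fell (list median 0.50). They were the tetraspanin Cd63 at 1.87 ± 0.21, the cholesterol carrier Npc2 at 1.5 ± 0.16, the macrophage sialomucin Cd68 at 1.02 ± 0.13, progranulin Grn at 0.87 ± 0.12, Atp6v1b2 at 1.18, Gm2a at 0.92, Lamp2 at 0.76, prosaposin Psap at 0.75 and Lamp1 at 0.70. No other proton pump gene of the list passed. With equal weight per cell the enzymes had 4 higher and 2 lower and the membrane list 4 higher, with Psap at 0.39, Lamp1 at 0.42 and Man2b1 at 0.27 not called, and Gm2a kept its call in 2 of the 7 fits without a mouse.

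Promoter windows of 4 of the higher lysosomal genes are printed because each holds CACGTG, the palindrome at the core of the element that the transcription factor TFEB is known to bind in human lysosomal genes. They are RefSeq windows of GRCm38.p6, 250 bases before to 50 bases after a transcription start, read 5′ to 3′ on the gene's strand, with each CACGTG in capitals.
Ctsd, chr7:142387778-142388077, minus strand: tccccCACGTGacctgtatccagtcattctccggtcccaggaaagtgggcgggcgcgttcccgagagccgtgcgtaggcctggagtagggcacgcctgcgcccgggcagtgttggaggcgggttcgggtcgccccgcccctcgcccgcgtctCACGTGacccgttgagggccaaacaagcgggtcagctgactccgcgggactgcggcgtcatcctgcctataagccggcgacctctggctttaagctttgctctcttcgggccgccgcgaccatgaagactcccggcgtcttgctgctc
Ctsl, chr13:64370471-64370770, minus strand: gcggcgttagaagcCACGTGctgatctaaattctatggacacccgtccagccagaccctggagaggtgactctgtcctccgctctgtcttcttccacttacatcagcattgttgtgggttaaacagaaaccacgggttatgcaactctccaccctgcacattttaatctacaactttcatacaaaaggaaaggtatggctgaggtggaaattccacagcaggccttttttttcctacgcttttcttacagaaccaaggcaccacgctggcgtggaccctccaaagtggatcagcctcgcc
Ctsa, chr2:164833523-164833822, plus strand: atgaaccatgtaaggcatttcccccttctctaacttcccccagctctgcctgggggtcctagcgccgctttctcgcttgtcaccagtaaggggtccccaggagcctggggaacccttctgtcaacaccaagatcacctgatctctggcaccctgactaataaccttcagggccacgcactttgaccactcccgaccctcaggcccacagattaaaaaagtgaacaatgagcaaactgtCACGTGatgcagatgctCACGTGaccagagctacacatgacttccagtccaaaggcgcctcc
Lamp1, chr8:13158911-13159210, plus strand: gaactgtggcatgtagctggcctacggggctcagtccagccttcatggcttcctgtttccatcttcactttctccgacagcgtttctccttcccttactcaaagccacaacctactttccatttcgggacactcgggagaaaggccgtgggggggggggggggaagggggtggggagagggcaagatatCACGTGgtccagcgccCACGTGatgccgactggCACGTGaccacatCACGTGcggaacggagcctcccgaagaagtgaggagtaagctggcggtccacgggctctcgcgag
Lamp1 held 4 copies, Ctsd and Ctsa 2 each and Ctsl 1. CACGTG was in 17 of 61 promoters of the lysosomal lists (27.9%), in 4 of 20 promoters of the members of those lists called higher (20%), in 14 of 115 promoters of the genes called higher (12.2%), in 4 of 40 of those called lower (10.0%) and in 7.15% of all 32851 promoters. A RefSeq promoter could be matched by symbol for 91 of the 132 higher and 29 of the 44 lower genes. A match describes these letters only and does not show binding.

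Class I antigen presentation genes rose in 3 of 19 tested, with none lower and a list median of 0.83. H2-D1, a class I heavy chain, had 2797, 3024 and 2946 CPM in 5xFAD mice, against 765, 470, 742 and 512 CPM in WT mice. The groups were apart by more than the spread of either (2.23 ± 0.18, adjusted p = 1.49e-07). B2m, the light chain shared by all class I molecules, had 6283, 5622 and 5067 CPM in 5xFAD mice and 2743, 2100, 2116 and 2404 CPM in WT mice (1.27 ± 0.12, adjusted p = 1.18e-06), and the second heavy chain H2-K1 was higher by 1.62 ± 0.23. H2-D1, H2-K1 and their class I relatives are near-identical in sequence, and how reads were shared among them is not given in the sources used here. H2-T23, a non-classical class I gene, was just outside the threshold at 0.82 ± 0.21 (adjusted p = 0.0584).

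No class II gene of 9 tested passed in either direction, and the list median of −0.66 rests on a single mouse. H2-Aa, a class II alpha chain, had 23.8, 17.1 and 5.33 CPM in 5xFAD mice against 7.55, 0.109, 796 and 0.0771 CPM in WT mice. Cd74, the invariant chain, had 247, 147 and 224 CPM in 5xFAD mice against 17.3, 6.22, 1262 and 19.6 CPM in WT mice. WT mouse 3, which holds the border macrophage well, was the high one for both, and the other WT mice were below every 5xFAD mouse for Cd74. Without the wells of other cell types the fold change of H2-Aa was 3.01 instead of −3.70, and neither passed (adjusted p = 0.473 and 0.518).

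Of 38 interferon-induced genes, 2 rose and none fell, although 36 had a positive fold change and the list median was 1.79. Ifi27l2a, a small mitochondrial protein, had 81.2, 117 and 66.8 CPM in 5xFAD mice and 0, 1.2, 3.60 and 8.95 CPM in WT mice (4.66 ± 0.86, adjusted p = 0.00476). Slfn5, a Schlafen family helicase, had 25.9, 58.7 and 14.9 CPM in 5xFAD mice and no read in WT mice, at least 502-fold higher (adjusted p = 0.00699). A read of Slfn5 was found in 8.44% of 5xFAD cells, and Ifi27l2a in 61.7% of 5xFAD and 6.04% of WT cells, both without thinning. Other members did not pass. Ifi44 had 0.556, 51.6 and 41.0 CPM in 5xFAD mice and no read in WT mice (adjusted p = 0.174), and the chemokine Cxcl10 was at 526 CPM in 5xFAD mouse 2 and at 0 in every other mouse. Oas1a, an antiviral oligoadenylate synthetase, had 38.6, 48.1 and 23 CPM in 5xFAD mice and 0, 1.75, 6.42 and 8.79 CPM in WT mice (adjusted p = 0.184).

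The promoters of B2m and Slfn5 are shown because they hold the core of the interferon-stimulated response element (GAAA, any 2 bases, GAAA), which is in capitals. The windows are RefSeq's as above.
B2m, chr2:122147437-122147736, plus strand: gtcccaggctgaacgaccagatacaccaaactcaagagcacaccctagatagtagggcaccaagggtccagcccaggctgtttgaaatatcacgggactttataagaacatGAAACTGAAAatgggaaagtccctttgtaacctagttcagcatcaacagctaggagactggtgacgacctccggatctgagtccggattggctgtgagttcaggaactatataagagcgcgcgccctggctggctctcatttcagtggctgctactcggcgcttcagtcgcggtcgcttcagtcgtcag
Slfn5, chr11:82951852-82952151, plus strand: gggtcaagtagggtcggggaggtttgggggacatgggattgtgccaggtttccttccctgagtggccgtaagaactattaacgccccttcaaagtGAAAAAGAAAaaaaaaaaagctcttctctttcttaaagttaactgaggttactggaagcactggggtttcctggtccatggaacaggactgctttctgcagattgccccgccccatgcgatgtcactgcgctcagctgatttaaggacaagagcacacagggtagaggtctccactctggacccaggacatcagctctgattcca
The motif, searched on both strands, was in 19 of 37 promoters of the interferon list (51.4%), in 10 of 115 promoters of higher genes (8.70%), in 0 of 40 promoters of lower genes and in 3.44% of all promoters.

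Trem2, the lipid-sensing receptor whose variants raise the risk of Alzheimer's disease in humans, had 3568, 3217 and 3211 CPM in 5xFAD mice, against 2018, 1894, 1754 and 1873 CPM in WT mice. Tyrobp, also called DAP12, the adaptor that carries the Trem2 signal into the cell, had 3137, 2684 and 2193 CPM in 5xFAD mice and 888, 859, 819 and 980 CPM in WT mice. Every 5xFAD mouse was above every WT mouse for both partners. The fold changes were 0.82 ± 0.11 for Trem2 (adjusted p = 9.75e-05) and 1.59 ± 0.16 for Tyrobp (adjusted p = 3.23e-06). In the Trem2 pathway list, 4 of 28 genes rose and none fell. Apart from Trem2, Tyrobp and Apoe, only the adaptor Lat2 was called (1.25 ± 0.27, kept in 4 of the 7 fits without a mouse). The list median was −0.10 (above 0 with the plate columns as deposited). The kinase Syk stood at −0.24 and the phospholipase Plcg2 at −0.23, neither past the threshold.

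Of 33 complement and phagocytic receptor genes, 8 rose and 1 fell (list median 0.39). Besides Trem2, Tyrobp, Axl and Clec7a, the higher ones were the activating IgG receptor Fcgr4 (123, 49.7 and 133 CPM in 5xFAD mice against 11.7, 26.0, 2.05 and 8.33 CPM in WT mice), the inhibitory IgG receptor Fcgr2b at 0.88 ± 0.15, the integrin subunit Itgb2 at 0.68 ± 0.15 and the complement subunit C1qb at 0.37 ± 0.09. The count higher was 3 without WT mouse 3, 4 without 5xFAD mouse 1 or 3 and 5 or 6 without any other mouse. Fcgr4 and C1qb kept their call in 2 of those 7 fits and Itgb2 in 4, and with equal weight per cell C1qb stood at 0.12 and Itgb2 at 0.33, neither called. C1qa, the partner of C1qb, was at 0.12 ± 0.09 and did not pass. The scavenger receptor Stab1 fell, to 268, 161 and 159 CPM in 5xFAD mice, against 426, 414, 453 and 366 CPM in WT mice (−1.08 ± 0.21, adjusted p = 0.00647), but was not called without 5xFAD mouse 2 or 3. Among 27 inhibitory receptor genes, 3 rose: Fcgr2b, Lilrb4a and Cd72, a B cell and myeloid lectin with 66.8, 63.3 and 245 CPM in 5xFAD mice and 0, 5.56, 0.342 and 7.17 CPM in WT mice. Cd72 kept its call in 3 of the 7 fits without a mouse.

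Lipid handling genes rose in 5 of 32 tested and fell in none (list median 0.91). Apart from Apoe, Lpl, Ch25h and Npc2 this was Plin2, which coats lipid droplets, with 118, 110 and 104 CPM in 5xFAD mice against 29.2, 7.96, 11.1 and 26.4 CPM in WT mice (2.57 ± 0.45, adjusted p = 0.00256). The cholesterol exporters Abca1 and Abcg1 stood at −0.20 and −0.15 and did not pass.

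Of 19 glycolysis and hypoxia genes 5 rose and none fell (list median 1.06). Hif1a, the oxygen-regulated transcription factor, had 770, 627 and 635 CPM in 5xFAD mice and 209.1, 134, 167 and 187 CPM in WT mice (1.96 ± 0.30, adjusted p = 0.000628). The glycolytic enzymes were Tpi1 at 2.16 ± 0.30, Pkm at 1.49 ± 0.26, Ldha at 1.14 ± 0.24 and Aldoa at 1.06 ± 0.19. Ldha kept its call in 3 of the 7 fits without a mouse. Gapdh and Pgk1 had fold changes of 1.35 and 1.37 that did not pass.

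The ferritin chains Fth1 and Ftl1 rose by 1.26 ± 0.14 and 1.13 ± 0.19, the phagosomal metal transporter Slc11a1 by 1.08 ± 0.21 and transferrin, Trf, by 0.71 ± 0.17. Slc40a1, the iron exporter ferroportin, fell to 145, 160 and 120 CPM in 5xFAD mice, against 554, 482, 343 and 449 CPM in WT mice (−1.69 ± 0.35, adjusted p = 0.0154). In all, 4 of 17 iron genes rose and 1 fell (list median 0.71), against 2 higher and 3 lower with equal weight per cell. Trf lost its call in each of the 7 fits without a mouse, and Slc40a1 was called in 4 and Slc11a1 in 6 of them.

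**Figure D4:**
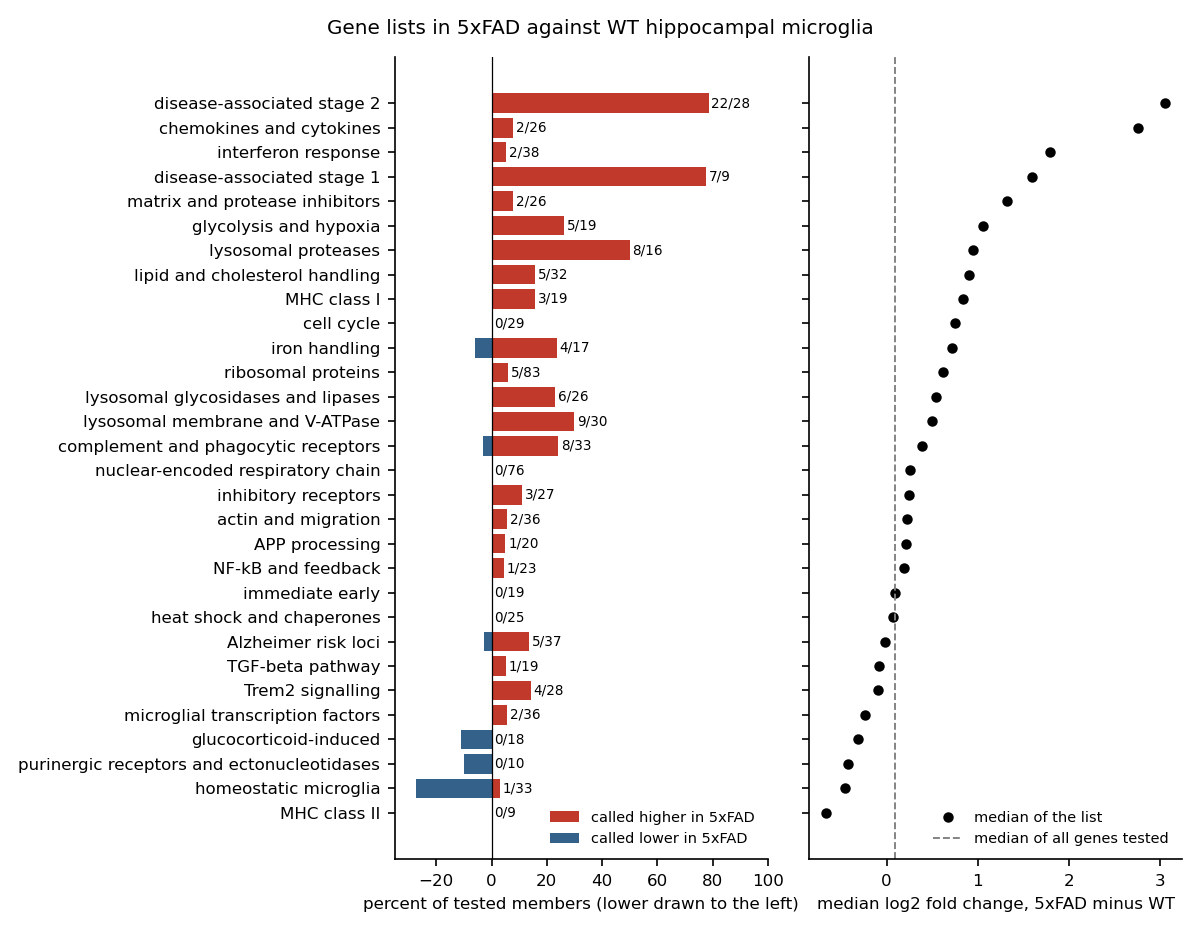
For each gene list, the percent of tested members called higher (red, to the right) or lower (blue, drawn to the left) in 5xFAD hippocampal microglia, with the count higher over the count tested (left panel), and the median log2 fold change of the list beside that of all genes tested, 0.10 (right panel). The later-step list leads with 22 of 28 higher and a median of 3.05, and the homeostatic list has the most members lower, 9 of 33.

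Other programs held few calls. Chemokines and cytokines had 2 of 26 higher (Igf1 and Spp1) and a list median of 2.76, while Ccl3, at 244, 251 and 105 CPM in 5xFAD mice against 35.9, 2.18, 6.59 and 0.771 CPM in WT mice, and Ccl4, at 324, 203 and 255 CPM against 92.9, 6.11, 0 and 0.54 CPM in WT mice, did not pass (adjusted p = 0.281 and 0.357). Il1b and Tnf overlapped between the groups. NF-kB genes had 1 of 23 higher, the surface molecule Cd83 (1.09 ± 0.26, adjusted p = 0.0446), which lost its call in each of the 7 fits without a mouse. Among 36 microglial transcription factors, Hif1a and Bhlhe40, a basic helix-loop-helix repressor, rose. Bhlhe40 had 75.2, 92.6 and 38.9 CPM in 5xFAD mice and no read in WT mice, at least 1016-fold higher, and kept its call in 3 of the 7 fits. The identity factors Spi1, Irf8 and Sall1 stood at −0.29, 0.03 and −0.45, none past the threshold. Of 19 TGF-beta pathway genes only the receptor Tgfbr2 passed, at 0.69 ± 0.16, but it kept its call in 1 of the 7 fits (adjusted p up to 0.331) and was at 0.32 with equal weight per cell (adjusted p = 0.443). Of 10 purinergic genes only P2ry12 passed. Glucocorticoid-induced genes had 2 of 18 lower, Tsc22d3 (50.05, 19.7 and 18.8 CPM in 5xFAD mice against 77.7, 81.8, 167 and 197 CPM in WT mice) and Txnip (−1.12 ± 0.22), which kept their calls in 4 and 5 of the 7 fits.

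By edgeR at an adjusted p under 0.05, no member passed among 29 cell cycle genes, 19 immediate early genes, 25 heat shock and chaperone genes and 76 nuclear-encoded respiratory chain genes. The medians of these lists were 0.75, 0.10, 0.07 and 0.25. Actin and migration genes had 2 of 36 higher, the motor Myo1e (4.00 ± 0.75) and the capping protein Capg (1.95 ± 0.43, kept in 3 of the 7 fits without a mouse). Matrix genes and protease inhibitors had 2 of 26 higher, Cst7 and the serpin Serpine2 (1.30 ± 0.23). Mouse App, the gene whose human copy the transgene carries, had 330, 267 and 248 CPM in 5xFAD mice and 153, 200, 204 and 207 CPM in WT mice and did not pass (0.56 ± 0.26, adjusted p = 0.363). Of 20 APP family and secretase genes its relative Aplp2 passed, at 1.43 ± 0.33 (adjusted p = 0.0307), but kept its call in 1 of the 7 fits (adjusted p up to 0.118) and lost it with equal weight per cell (adjusted p = 0.0558). Mouse orthologues of human Alzheimer's risk loci had 5 of 37 higher (Apoe, Ctsb, Ctsh, Grn and Trem2) and 1 lower (Bin1, kept in 2 of the 7 fits), with a list median of −0.01.

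Further genes were picked out after their values were seen. Eef1a1 and Eef2, the elongation factors, rose by 1.28 ± 0.15 and 1.12 ± 0.16, the ribosomal scaffold Rack1 by 1.12 ± 0.15, the poly(A)-binding protein Pabpc1 by 1.47 ± 0.29, and most ribosomal proteins did not pass: 5 of 83 tested were higher, Rplp0, Rps3, Rpl4 and Rpl8 among them, and none lower, with a list median of 0.62. The count higher was 2 to 4 with a mouse left out and 2 with equal weight per cell, and Rplp0, Rpl4 and Rpl8 were called in 2, 3 and 1 of the 7 fits. Mitochondrially encoded genes had 8 of 22 higher and 1 lower. These were mt-Co1 at 1.36 ± 0.13, mt-Rnr1 at 1.41, mt-Rnr2 at 1.16, mt-Nd5 at 1.15, mt-Cytb at 0.99, mt-Nd6 at 0.96, mt-Nd4 at 0.88 and mt-Nd1 at 0.86, while mt-Nd3 had no read in 5xFAD mice and 3.36 CPM on average in WT mice. Without a mouse, mt-Nd6 kept its call in 1 of the 7 fits and mt-Nd3 in none, and with equal weight per cell mt-Cytb, mt-Nd1, mt-Nd4 and mt-Nd6 were not called. The share of mitochondrial reads moved with them, with a median of 2.14% of a cell's reads in 5xFAD mice and 1.63% in WT mice, and its part in these values was not tested.

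The genes with the largest falls outside the lists were of mixed kinds. Gp9, a platelet glycoprotein subunit, had 10.1, 6.23 and 5.56 CPM in 5xFAD mice and 60.4, 39.3, 47.2 and 49.8 CPM in WT mice. Hnmt, which inactivates histamine, had 17, 20.8 and 20.9 CPM in 5xFAD mice and 115, 66.0, 97.0 and 75.3 CPM in WT mice (−2.17 ± 0.41, adjusted p = 0.0062). The groups were apart for both. The tetraspanin Tspan18, the zinc finger gene Zfp691, the remodeller Chd2, Fam110a, the nuclear co-repressor Nrip1 and the exon junction protein Casc3 fell by 1.43 to 2.49, and the adjusted p of each lay between 0.024 and 0.0491. Most of these calls were lost in fits with fewer mice: of the 7 fits without a mouse, Gp9, Zfp691, Chd2 and Nrip1 passed in 0, Casc3 and Fam110a in 1, Tspan18 in 3 and Hnmt in 6. Among the higher genes outside the lists, Ly9, a SLAM family receptor, had 360, 311 and 243 CPM in 5xFAD mice and 21.1, 6.11, 20.0 and 7.48 CPM in WT mice (4.48 ± 0.86, adjusted p = 0.00648). Sdc3, a heparan sulfate proteoglycan, had 235, 299 and 249 CPM in 5xFAD mice and 20.5, 10.5, 27.7 and 61.3 CPM in WT mice (3.12 ± 0.43, adjusted p = 0.000201).

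Slc34a2, a sodium phosphate cotransporter, was called lower, at 1260, 1464 and 1077 CPM in 5xFAD mice against 3172, 3088, 3099 and 2716 CPM in WT mice (−1.25 ± 0.17, adjusted p = 0.00012). Of the gene reads in the 12 blank wells 78.0% were its own, and it had a read in every kept hippocampal cell, while 5xFAD cells held more reads than WT cells, and the part of this background in its value was not tested. With equal weight per cell Slc34a2 was not called (−0.92, adjusted p = 0.0915). Among markers of other cells, Csf3r, a neutrophil receptor that microglia also express, was higher by 0.84 ± 0.17 (kept in 4 of the 7 fits without a mouse), with 867, 778 and 923 CPM in 5xFAD mice and 483, 556, 355 and 514 CPM in WT mice. The neutrophil granule genes S100a8, S100a9, Retnlg, Camp and Ngp had reads in 5xFAD mice and were at 0 in WT mice, and Ly6g did not pass. Neutrophil markers marked no hippocampal well but 5 wells of the 5xFAD cerebellum, on the same plate as the 5xFAD hippocampus.

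Whether the genotype difference was larger in the hippocampus than elsewhere was tested as a difference of differences. Against cortex, 8 genes passed, 0.0461% of those tested, 7 with a larger value in the hippocampus and 1 with a smaller one (edgeR, adjusted p under 0.05), while 1976 genes had an unadjusted p under 0.05. With equal weight per cell 71 were larger and 40 smaller. Ctsb rose by 1.69 ± 0.10 in the hippocampus and by 0.90 ± 0.10 in the cortex, and the difference of 0.79 ± 0.14 passed (adjusted p = 0.0372). Selplg fell by 0.72 ± 0.09 in the hippocampus and stood at −0.03 ± 0.09 in the cortex (difference −0.69 ± 0.13, adjusted p = 0.0442). Both differences lost their call when the mouse, matched across regions by its number, was a block (adjusted p = 0.0843 for each). Ctsb also lost its call in each of the 7 fits without a mouse (adjusted p 0.0643 to 0.107) and with equal weight per cell (0.39, adjusted p = 0.277). Selplg lost its call in 6 of those 7 fits (adjusted p 0.0472 to 0.302 over the 7) and with DESeq2's size factors (adjusted p = 0.0605). The other 6 were mt-Nd5, mt-Co1 and mt-Rnr2, with differences of 1.09 to 1.23, and the predicted genes Gm10800, Gm10801 and Gm21738, which were not called in the hippocampus itself. No gene passed without 5xFAD mouse 1, without 5xFAD mouse 2 or without WT mouse 3 of the hippocampus, and the WT cortex shared the plate of the WT hippocampus while the 5xFAD cortex was on a further plate. Cst7, Lpl, Axl, Clec7a, Apoe and Igf1 did not pass this test, with differences of 1.90 ± 1.73, −0.04 ± 1.11, 1.31 ± 1.61, 0.92 ± 1.28, 2.11 ± 1.21 and 5.54 ± 2.19.

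Against cerebellum, 52 genes passed, 0.3% of those tested, 43 with a larger value in the hippocampus and 9 with a smaller one (1979 genes had an unadjusted p under 0.05). P2ry12 fell by 1.07 ± 0.09 in the hippocampus and stood at 0.31 ± 0.09 in the cerebellum (difference −1.38 ± 0.13, adjusted p = 4.55e-06). The class I genes B2m and H2-D1 differed by 1.61 ± 0.17 and 2.06 ± 0.25, at −0.33 and 0.17 in the cerebellum. Lysosomal proteases differed too, Ctsb by 1.21 ± 0.15, Ctsz by 1.2 ± 0.18, Ctsd by 1.17 ± 0.19, Ctsl by 1.10 ± 0.20 and Ctss by 0.55. Tyrobp differed by 1.96 ± 0.23 and Trem2 by 0.77 ± 0.15, and none of these genes was called in the cerebellum. Ferritin Fth1, Npc2, Cd63, Lgals3bp, Tpi1, Ly86 (a partner of Toll-like receptor family member RP105) and Rps3 were also larger in the hippocampus, by 1.10 to 2.32, and Cd164 and Slc40a1 had differences of −1.11 and −2.44. With equal weight per cell 41 genes had a larger and 50 a smaller value in the hippocampus. In the cerebellum, 20 of 193 5xFAD and 12 of 162 WT cells carried markers of another cell type. Border macrophage markers were found in 13 and 12 cells. The hippocampus had 2 cells of other types per genotype. Without such wells 56 genes passed, 42 with a larger and 14 with a smaller value in the hippocampus, and 45 of the 52 kept their call. The 5xFAD samples of both regions shared a plate, while the WT cerebellum was on the plate of the 5xFAD cortex.

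**Figure D5:**
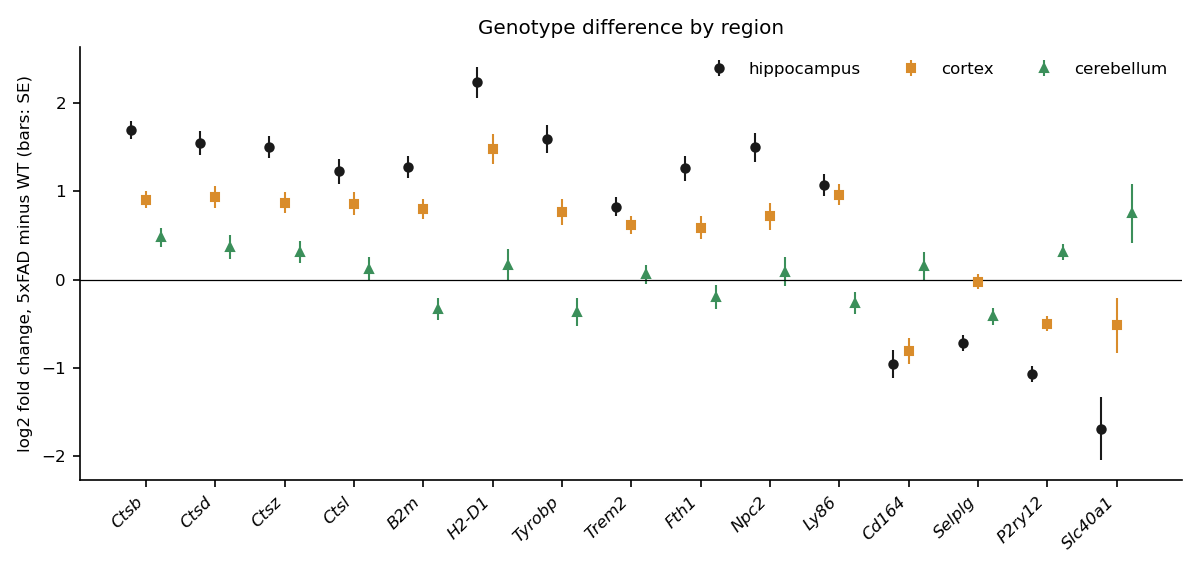
Log2 fold change of 5xFAD over WT with its SE (vertical axis) for 15 genes in hippocampus (black circles), cortex (orange squares) and cerebellum (green triangles). Ctsb stood at 1.69, 0.90 and 0.48 and P2ry12 at −1.07, −0.50 and 0.31.

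The disease-associated genes with the largest folds did not pass the comparison with cerebellum either, except Ch25h (adjusted p = 0.0193). Cst7 stood at 2.44 ± 1.27 in the cerebellum, with a difference of 5.62 ± 1.90 (adjusted p = 0.291), Apoe at −0.05 ± 0.89 with a difference of 5.13 ± 1.34 (adjusted p = 0.133), and Lpl at 0.69 ± 0.89 with a difference of 6.06 ± 1.38 (adjusted p = 0.0654). The standard errors of these 3 differences were 1.34 to 1.90, against 0.15 to 0.20 for Ctsb, Ctsz, Ctsd and Ctsl, and a missed threshold does not show that the regions were alike for them.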

How the data were processed

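Each cell's values were raw read counts per gene as deposited. Per the submitters' processing notes, reads were handled with STAR 2.5.2b, featureCounts 1.5.1 and GRCm38; whether counting used strand is not given in the sources used here. In the deposited table, plate columns 1 and 2 of each row held the sums over wells whose numbers begin with those digits (well 1 with 10 to 19, well 2 with 20 to 24), so those wells' counts were subtracted, and none of the 4673184 corrected values came out negative; this touched 23 kept wells of 5xFAD mouse 1 and none of the other hippocampal mice. Of 1140 cell wells 1041 passed the filter. Counts were summed per mouse and region (22 sums, 48587 genes in the table), and 17358 genes kept by edgeR's expression filter were fitted with edgeR 4.0.16 in R 4.3.3 (TMM scaling, quasi-likelihood test, all 22 sums sharing 1 estimate of spread, 1 mean per genotype and region). SE is the size of the fold change divided by the square root of F. Gene coordinates came from the GENCODE vM21 annotation of GRCm38. Members and lists were chosen with earlier results of these data known. Genes were named as follows: among called genes that averaged 4 or more in log2 CPM, were found in 20% or more of one group's cells and kept the mice of the groups apart, the 12 higher and 12 lower with the largest folds; up to 4 genes of each list with the smallest p; 8 genes for each regional difference; and 18 marker genes. Others named were chosen after their values were seen, or as members of a list whose count is given. Wells with at least 10 reads of at least 3 markers of another cell type were taken as that type and left out in 1 alternative; doublets were not called. Other alternatives used DESeq2 1.42.0, limma 3.58.1, other scalings, filters and cells, and each mouse left out. On simulated counts of 15943 genes for the hippocampal comparison, 2% and 0% of genes changed by 1 and −1 on the log2 scale were called, 12% and 18% of those changed by 3 and −3, and 0% of unchanged genes, so a gene that missed the threshold may still differ. Mouse numbers of the genotypes did not pair the sums (correlation of deviations −0.0141 to 0.0161 over 6591 genes). Hippocampal sums and cortical or cerebellar sums of the same genotype and number had correlations of −0.0368 to 0.0196. The mouse block assumes that equal numbers are the same mouse, which the labels do not state. The sums give the depth of each mouse, and their number, 3 against 4, limits the precision. Some genes are not reported here.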

Additional observations from a re-analysis of the deposited data

Results flagged for a closer look

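In 11 of the 120 groups of 4 WT mice checked, 1 mouse stood far from the other 3. The rate of about 1 in 20 set for this check assumes independent values. These genes share the same mice and were partly chosen from these data, so the count is not read against that rate. A gene with reads in only 1 WT mouse, as Igf1, is flagged whatever its level. WT mouse 3 was the high one for Apoe (1266 CPM), H2-Aa (796 CPM), H2-Eb1 (487 CPM), Lilrb4a (17.9 CPM), Gsn, an actin-severing protein (3.34 CPM), and Igf1 (0.0856 CPM, a single read). WT mouse 4 was the high one for Egr1, an immediate early gene (14 CPM), Ciita, the class II transactivator (1.31 CPM), and Ccnb2, a cyclin (1.00 CPM). WT mouse 2 was the low one for Plaur, the urokinase receptor (2.62 CPM), and WT mouse 1 the low one for App (153 CPM). WT mouse 3 also held the border macrophage well, and without wells of other types the fold change of Apoe was 6.41. The groups of 3 5xFAD mice are too small for this check.

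The genotype difference itself differed between hippocampus and cortex for Ctsb (0.79) and Selplg (−0.69), by edgeR's test of the difference at an adjusted p under 0.05, and both calls were lost when the mouse was a block. Between hippocampus and cerebellum it differed in the same way for 21 of the named genes. Larger values in the hippocampus were found for Lgals3bp (2.32), Tpi1 (2.14), H2-D1 (2.06), Tyrobp (1.96), B2m (1.61), Fth1 (1.46), H2-T23 (1.41), Npc2 (1.41), Cd63 (1.40), Ly86 (1.34), Ctsb (1.21), Ctsz (1.2), Ctsd (1.17), Ctsl (1.10), Rps3 (1.10) and Trem2 (0.77). Ch25h had a fitted difference of 12.27, a value that depends on the prior count because WT hippocampal mice held no read of it. Smaller values were found for Slc40a1 (−2.44), Slc34a2 (−1.59), P2ry12 (−1.38) and Cd164 (−1.11).

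Blank wells gave a signal of their own, since Slc34a2 held 78.0% of their gene reads.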

How the results depend on the processing

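Of 78 named genes called in the hippocampus, 22 kept their call in every setting tried, among them Ctsb, Ctsd, Ctsl, Ctsz, Npc2, Cd63, Cd68, Grn, Hexa, B2m, H2-D1, Tyrobp, P2ry12, Hif1a, Tpi1, Igf1 and Ch25h, and 50 kept it in all 7 fits without a mouse. No called gene changed direction in any setting. The 176 calls became 748 with DESeq2 (478 higher, 270 lower), 417 with limma voom, 327 without a filter on low counts and 372 with equal weight per cell, and 113 to 140 with a mouse left out. The fit without a filter gave some genes whose mice overlap very small adjusted p-values, and its calls are not relied on. Voom was run with a span of 0.3, chosen after seeing the data, because its default span gave a negative variance trend. The replicate block on mouse number left 39 calls, 26 of them named genes. The 8 differences from cortex became 363 with DESeq2, 40 with voom, 76 without a filter, 13 with a stricter one, 111 with equal weight, 4 with thinned cells, and 0 with columns as deposited or with stricter cell limits, 0 to 9 with a mouse left out, and 6 with a replicate block for the mouse, 3 of them among the 8. The 52 differences from cerebellum became 534 with DESeq2, 180 with voom, 186 without a filter, 96 with a stricter one, 18 as deposited and 91 with equal weight, 18 to 43 with a mouse left out, and 45 with that block, 35 of them among the 52. The median of the class II list turned positive without WT mouse 3, and those of the NF-kB, actin, inhibitory receptor and APP lists turned negative with equal weight per cell. The cause of these moves was not tested. Gpnmb, Lgals3 and Ifi44 missed the threshold with every WT mouse below every 5xFAD mouse. The same held for most genes with such a split: it was found for 1251 of the 17358 genes tested, and 132 of these were called.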
